A study of Arabidopsis thaliana with 9 samples.

Results

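The genes described here lie at the upper end of chromosome 3 of Arabidopsis thaliana, next to the telomere at the start of the reference sequence. They were chosen by locus code, from AT3G01040 to AT3G04290, with 2 codes left out, and by a mean of at least 1 CPM (the count of a gene scaled to the depth of its library) over all 9 libraries. Of 651 rows in that range of codes, 384 fell below 1 CPM and 265 genes remained, of 33977 genes in the files. Among the rows below 1 CPM, 239 are annotated past the last member, outside the span given below. No counts in any library were found for 224 rows of the range. All 265 could be tested, among 19870 genes with enough counts, of which they made up 1.33%. They span 1.13 Mb of chromosome 3 (TAIR10.1 assembly, chr3:8723-1136397), 135 on the plus strand and 130 on the minus strand. The reference annotates 260 as protein-coding and 5 as long non-coding RNAs.

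RNA was sequenced from aboveground tissue of Col-0 plants at the bolting stage, in 3 groups of 3 biological replicates. The first group carries the genotype label PPD3-RNAi T+ and the phenotype label dwarf, the second the same genotype label and the phenotype label large, and the third is wild type (WT), with no transgene in its label. PPD3 (AT1G76450) belongs to the PsbP domain family of chloroplast proteins, and RNA interference uses a hairpin transcript to lower the RNA of the gene it matches. Neither the promoter of the transgene, the number of independent lines nor the number of plants pooled in a library is given in the sources used here, and p-values therefore measure the spread between these libraries.

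By its labels, the series compares plants of both RNAi phenotypes with WT. In an annotated plant chromosome most neighbouring genes serve unrelated functions, and each is transcribed from its own promoter. A run of neighbours is therefore described here by its median, called the regional step, and each gene by how far it lies from that median. For every library the log2 CPM of a gene minus the mean log2 CPM of the 3 WT libraries was taken, and the step is the median of these log2 ratios over the 265 genes. The region was chosen because that median had been seen to stand apart in some of these libraries. The step and the fold changes it is part of are therefore given as descriptions, with no test, and only the distance of single genes from the step is tested.

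The PPD3 transcript itself had 87.6, 128 and 96.5 CPM in dwarf 1, 2 and 3 and 86.7, 77.9 and 108 CPM in large 1, 2 and 3, against 115, 100.2 and 91.1 CPM in WT 1, 2 and 3. The groups overlapped, and neither the fold change of dwarf (log2 0.030, edgeR adjusted p = 0.934) nor that of large (log2 -0.17, edgeR adjusted p = 0.708) against WT passed the test. Libraries are therefore called by their labels throughout. Gene counts summed to 34660392 to 35217754 per library. The 3 shoot markers RBCS1A, CAB1 and RCA summed to 19090 to 41520 CPM in dwarf, 23870 to 31520 CPM in large and 32200 to 36910 CPM in WT libraries. The 5 root markers summed to 31.2 to 45.0 CPM in dwarf and 38.8 to 46.9 CPM in large libraries, against 1.26 to 21.5 CPM in WT libraries. PYK10 made up most of those sums, the medians of COBL9 and EXPA7 over the libraries were 0, and the part of these tissues in the results was not tested. The 5 floral organ markers summed to 0.641 to 1.39 CPM.

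Sequences before the annotated start of 6 of the genes are shown because 3 of them left the regional step and 3 were among the members closest to it in all of large 1, 2 and 3. They are read 5′ to 3′ on the strand of the gene from TAIR10.1, RefSeq's copy of the assembly, and end at the base before the gene. Each stops at 200 bases or where another annotated exon begins. Capitals mark the letters of the motifs searched on both strands, the ABRE core ACGTG, the W-box core TTGAC and the site II element TGGGCC.
COBL1, one of the genes that left the step, a member of the COBRA-like family of wall proteins, COBL1, chr3:411874-412040 (-): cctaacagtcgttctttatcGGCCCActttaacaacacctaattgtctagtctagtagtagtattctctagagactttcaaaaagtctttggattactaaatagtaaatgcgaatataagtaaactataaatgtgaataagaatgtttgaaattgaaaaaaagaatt
An alpha hydrolase-like gene that left the step, AT3G03270, chr3:763370-763569 (-): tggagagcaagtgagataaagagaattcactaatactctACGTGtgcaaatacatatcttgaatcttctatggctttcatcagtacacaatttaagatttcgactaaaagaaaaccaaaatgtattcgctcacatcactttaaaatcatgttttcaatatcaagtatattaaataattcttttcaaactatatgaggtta
A gene of uncharacterized product that left the step, AT3G04020, chr3:1040131-1040330 (+): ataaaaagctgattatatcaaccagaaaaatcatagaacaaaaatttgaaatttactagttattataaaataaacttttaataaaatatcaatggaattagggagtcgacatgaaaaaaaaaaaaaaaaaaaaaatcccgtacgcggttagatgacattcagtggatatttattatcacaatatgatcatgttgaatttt
A TCP-1/cpn60 chaperonin gene that followed the step, AT3G02530, chr3:532613-532807 (-): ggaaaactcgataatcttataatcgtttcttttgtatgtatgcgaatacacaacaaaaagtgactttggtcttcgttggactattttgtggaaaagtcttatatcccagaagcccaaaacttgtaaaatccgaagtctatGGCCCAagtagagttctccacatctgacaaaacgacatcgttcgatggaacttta
An ATP synthase E chain gene that followed the step, AT3G01130, chr3:45810-46009 (-): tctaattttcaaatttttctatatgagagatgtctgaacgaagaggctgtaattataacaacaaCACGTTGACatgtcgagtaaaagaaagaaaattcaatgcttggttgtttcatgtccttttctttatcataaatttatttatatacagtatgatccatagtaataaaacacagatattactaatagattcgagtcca
A mitochondrial ribosomal protein gene that followed the step, AT3G01740, chr3:267527-267726 (+): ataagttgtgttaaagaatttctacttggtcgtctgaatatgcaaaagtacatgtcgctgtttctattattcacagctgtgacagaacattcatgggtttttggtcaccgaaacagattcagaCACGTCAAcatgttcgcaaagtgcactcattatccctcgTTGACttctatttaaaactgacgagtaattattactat
COBL1 and AT3G02530 hold a site II element and AT3G03270 an ABRE core. AT3G01130 and AT3G01740 hold an ABRE core that overlaps a W-box core, and AT3G01740 holds a second W-box core. The window of AT3G04020 holds none of the letters searched. Over windows of 250 bases, the site II element stood before 24.6% of the 260 protein-coding members and 13.7% of 27443 protein-coding genes of the genome, and it was added to the search after the values were seen. The ABRE core stood before 26.5% of the members and 22.9% of all genes, and the W-box core before 45.0% and 44.9%. The G-box CACGTG, which holds an ABRE core, stood before 8.46% and 6.49%, the DRE core CCGAC before 15% and 12.0%, the evening element AAATATCT before 7.69% and 4.79%, and the telo-box AAACCCTA, also added later, before 3.85% and 4.49%. The genes of the genome were not held to a mean of 1 CPM as the members were. The part of that difference in these shares was not tested. These are matches of letters only.

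In each library labelled large the median of the 265 genes stood above WT by nearly the same proportion. The median log2 ratio was 0.51, 0.54 and 0.53 in large 1, 2 and 3, or ratios of 1.42, 1.45 and 1.44. The dwarf libraries differed among themselves. Dwarf 1 had a median of 0.54, a ratio of 1.46, while dwarf 2 had -0.013 and dwarf 3 had -0.075. WT 1, 2 and 3 lay at -0.019, 0.016 and -0.0048. The mean step was 0.15 ± 0.34 in dwarf and 0.52 ± 0.015 in large libraries, against -0.0024 ± 0.018 in WT libraries (SD, n = 3 each), so a dwarf mean describes none of its libraries. Without dwarf 1 the dwarf mean was -0.044. On the rest of chromosome 3, with 3322 genes, the medians were -0.032, 0.0026 and -0.043 in dwarf and -0.025, -0.0063 and -0.015 in large libraries. Set against those, the members stood at 1.49, 0.989 and 0.978 times in dwarf 1, 2 and 3 and at 1.45, 1.46 and 1.46 times in large 1, 2 and 3. In a library made from whole shoots, a change in RNA per cell cannot be told apart from a change in the number of cells that express the gene.

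**Figure D1:**
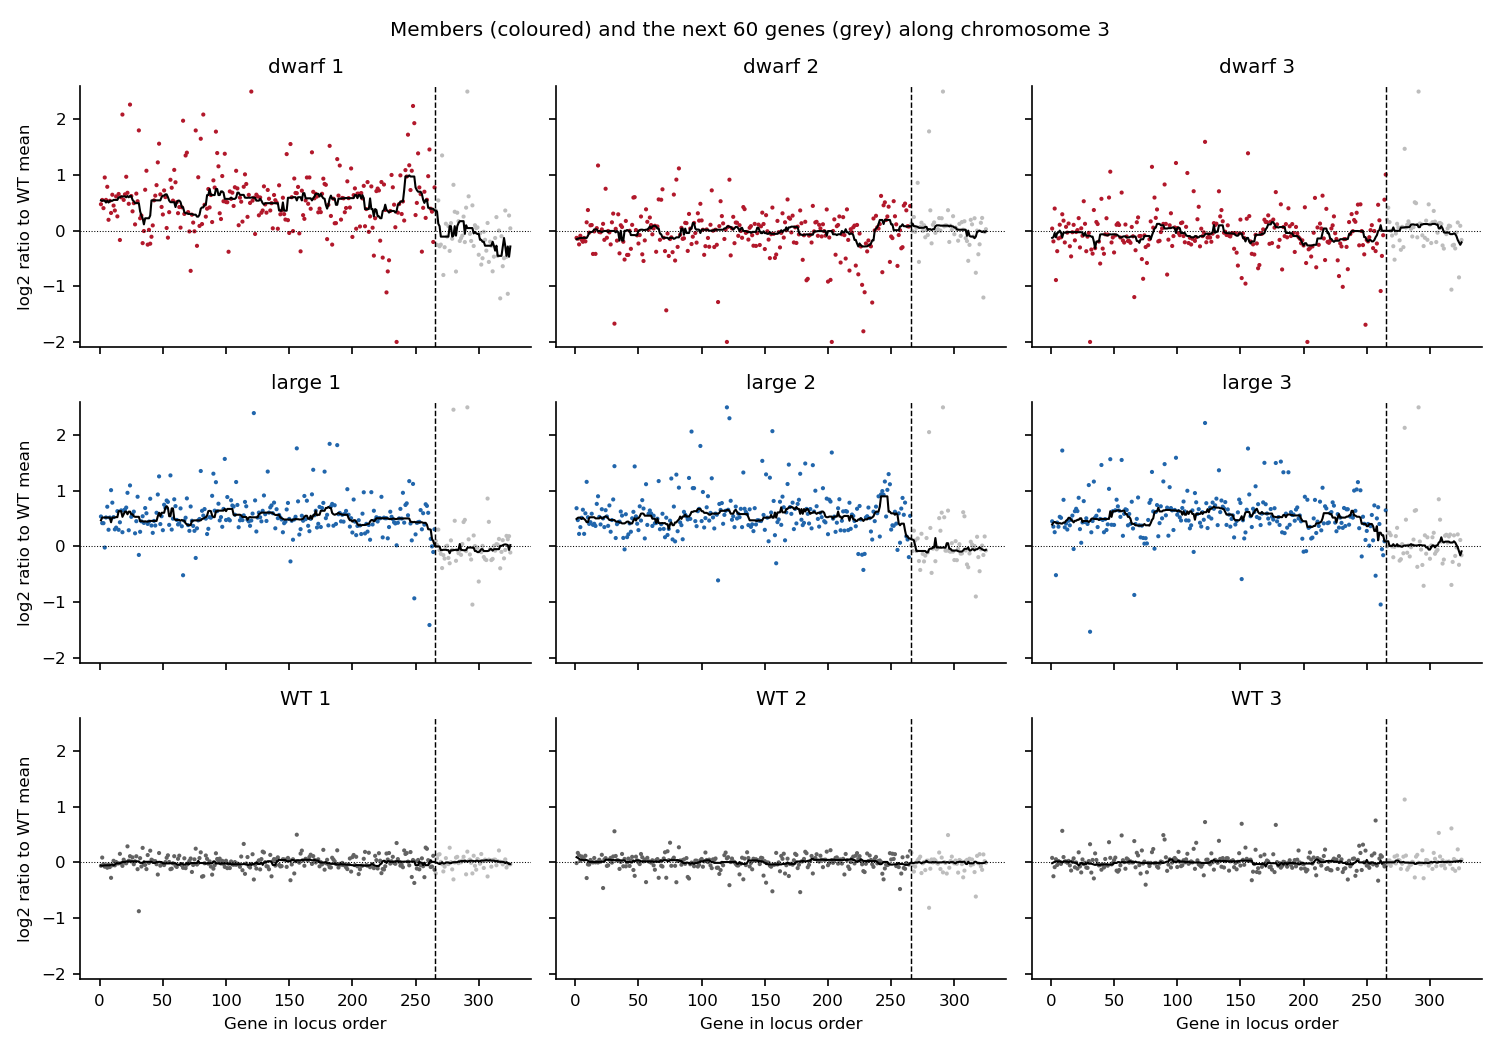
Log2 ratio of CPM to the WT mean (y) for each gene in locus order (x) in each of the 9 libraries, with the members coloured, the next 60 genes on the chromosome in grey, and the running median over 15 genes as a line; values beyond the axis are drawn at its edge. The line stays above 0 over the members, mostly near 0.5, in dwarf 1 and in large 1, 2 and 3, and near 0 in dwarf 2, dwarf 3 and the WT libraries, and in the raised libraries it comes down towards 0 around the dashed line that marks the last member.

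The step was present in blocks along the span, although the last few genes, described further on, lacked it. In 10 consecutive blocks of at least 25 members the block median lay between 0.44 and 0.58 in large 1, between 0.43 and 0.61 in large 2, between 0.42 and 0.67 in large 3 and between 0.36 and 0.64 in dwarf 1. The same blocks lay between -0.052 and 0.038 in dwarf 2 and between -0.15 and 0.054 in dwarf 3, and between -0.060 and 0.046 over the WT libraries. None of 132 blocks of 25 genes on the rest of the chromosome reached those values, since the highest was 0.12, 0.14 and 0.21 in large 1, 2 and 3 and 0.20 in dwarf 1. Above the WT mean stood 235, 125 and 104 of the 265 genes in dwarf 1, 2 and 3 and 257, 256 and 251 in large 1, 2 and 3. In 229 members (86.4%) every large library exceeded every WT library, against 19.7% of all genes tested. Every dwarf library exceeded every WT library in 31 members (11.7%, beside 16.8% of all genes) and lay below them in 17 (6.42%, beside 12.2%), and every dwarf library lay below every large library in 104 (39.2%, beside 11.2%). The region was chosen for its height in these libraries, and nothing is read from those differences.

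**Figure D2:**
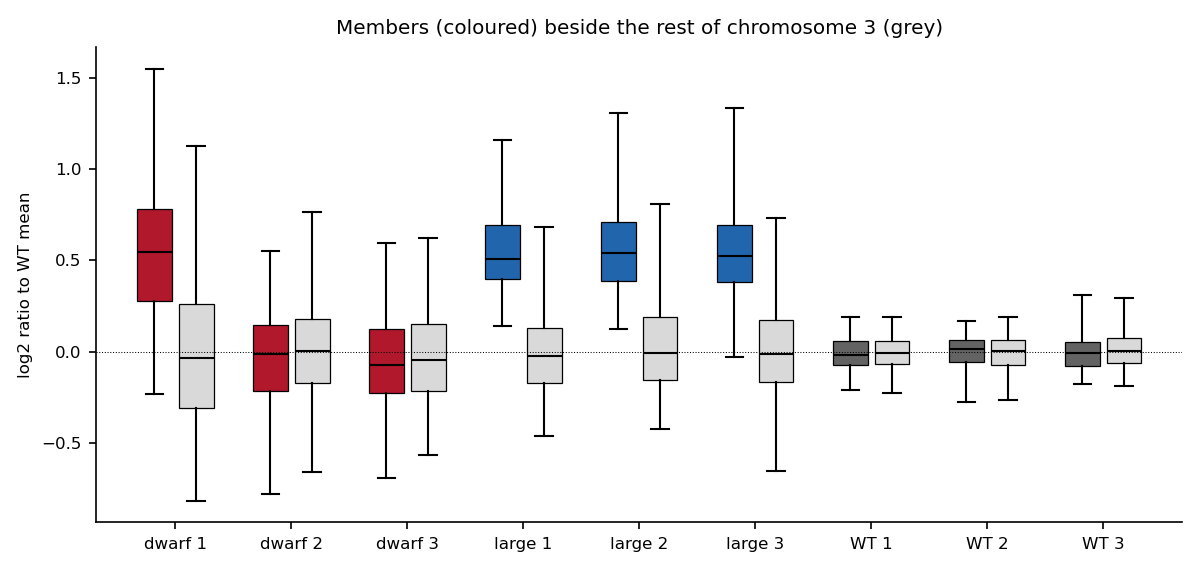
Log2 ratio of CPM to the WT mean (y) in each library (x), for the 265 members (coloured boxes) and the 3322 genes on the rest of chromosome 3 (grey boxes); boxes run from the 25th to the 75th percentile with the median as a line, and whiskers from the 5th to the 95th. The coloured boxes of dwarf 1 and the 3 large libraries sit higher than their grey partners, with medians of 0.54, 0.51, 0.54 and 0.53, and the box of dwarf 1 is taller than those of the large libraries.

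The genes scattered around the step about as widely as genes elsewhere scattered around 0. The interquartile range of the log2 ratios was 0.50 in dwarf 1, 0.36 in dwarf 2, 0.35 in dwarf 3, and 0.30, 0.32 and 0.31 in large 1, 2 and 3, against 0.12 to 0.13 in WT libraries. Each WT library is part of the WT mean it is set against, which narrows its range, so the WT values are not a like comparison. On the rest of chromosome 3 it was 0.57, 0.35 and 0.37 in dwarf and 0.30, 0.35 and 0.34 in large libraries. Dwarf 1 was the widest of the 9 libraries in both sets.

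A gene was said to follow the step in a library if its distance from the step was at most 0.5 times the step. In large 1, 2 and 3, 72.1, 68.3 and 67.2% of the members did so, and in dwarf 1 53.2%. On the rest of chromosome 3, 70.8, 66.6 and 65.6% of the genes in large 1, 2 and 3 and 47.3% in dwarf 1 lay as close to their own median. For the members in WT libraries, each set against the other 2 with a window of about the same width, 84.2, 87.2 and 84.5% lay inside. In all of large 1, 2 and 3 together, 140 members (52.8%) followed the step, 7 lay below it and 23 above it. The remaining members changed class between the 3 libraries. Of the 140, 102 followed the step of dwarf 1 as well, and of the 7 and the 23, 4 and 13 kept their side there. The level of a gene went with the class. Among the 88 members with the lowest mean CPM (1.03 to 11.6) 25% followed in all 3 large libraries, among the next 88 (12.1 to 40.6 CPM) 62.5%, and among the 89 highest 70.8%. The median step differed by level too. For the lowest 88 it was 0.57, 0.68 and 0.62 in large 1, 2 and 3 and 0.67 in dwarf 1. For the highest 89 it was 0.50, 0.45 and 0.53 in large 1, 2 and 3 and 0.42 in dwarf 1. The test of departure below takes out the same step at every level.

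The 5 members of at least 20 CPM that lay closest to the step in every large library were AT3G02530, MPPBETA, AT3G01130, AT3G01740 and AT3G03960, picked by these values. AT3G02530, a TCP-1/cpn60 chaperonin that folds newly made proteins, had 94.4, 73.3 and 58.9 CPM in dwarf 1, 2 and 3 and 88.4, 89.8 and 89.4 CPM in large 1, 2 and 3, against 61.5, 62.4 and 61.2 CPM in WT 1, 2 and 3. Its large libraries lay close together and clear of WT, and dwarf 3 lay below all WT libraries. MPPBETA (AT3G02090), the beta subunit of the mitochondrial peptidase that removes import signals, had 477, 336 and 314 CPM in dwarf and 438, 444 and 434 CPM in large, against 289.9, 322 and 307 CPM in WT libraries. A second chaperonin gene, AT3G03960, had 137, 116 and 111 CPM in dwarf and 158, 169 and 159 CPM in large, against 108, 109.9 and 116 CPM in WT libraries. Here dwarf 1 exceeded WT less than the step, with a log2 ratio of 0.30. AT3G01130 (ATP synthase E chain) and AT3G01740 (mitochondrial ribosomal protein L37) had log2 ratios of 0.52, 0.60 and 0.51 and of 0.50, 0.59 and 0.59 in large 1, 2 and 3, beside 0.54 and 0.54 in dwarf 1.

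The most abundant members differed in how closely they kept to the step. CA1 (AT3G01500), the carbonic anhydrase of the chloroplast and the most abundant member, had 1375, 1826 and 2405 CPM in dwarf and 2931, 2417 and 4464 CPM in large, against 1868, 1537 and 1474 CPM in WT libraries. Every large library exceeded WT, but large 3 stood far above the step with a log2 ratio of 1.46, and dwarf 1, which had the step, lay below all WT libraries. SAMDC (AT3G02470), the S-adenosylmethionine decarboxylase of polyamine synthesis, had 1285, 920.3 and 932 CPM in dwarf and 1176, 1419 and 1166 CPM in large, against 852, 1026 and 861 CPM in WT libraries. GAPC1 (AT3G04120), a glyceraldehyde-3-phosphate dehydrogenase of glycolysis in the cytosol, had 1263, 882 and 742 CPM in dwarf and 1002, 1136 and 949 CPM in large, against 675, 815 and 728 CPM in WT libraries. Both genes were higher in dwarf 1 and in all large libraries than in any WT library. MS2 (AT3G03780), a methionine synthase, had 332, 269 and 554 CPM in dwarf and 519.7, 422 and 772 CPM in large, against 427, 483 and 486 CPM in WT libraries, so large 2 lay below all WT libraries. MTO1 (AT3G01120), the cystathionine gamma-synthase that commits carbon to methionine, had log2 ratios of 0.20, -0.13 and 0.11 in dwarf and 0.30, 0.23 and 0.53 in large libraries. BIG (AT3G02260), a very large protein needed for auxin transport, had 0.71, -0.28 and 0.14 in dwarf and 0.47, 0.51 and 0.47 in large libraries. TRXF1 (AT3G02730), a thioredoxin that activates chloroplast enzymes in the light, had 0.035, -0.27 and -0.091 in dwarf and 0.51, 0.28 and 0.57 in large libraries. AK3 (AT3G02020), an aspartate kinase, had 0.085, -0.54 and 0.17 in dwarf and 0.49, 0.091 and 0.84 in large libraries. AT3G01310, the homolog of yeast Vip1, a kinase of inositol pyrophosphates in yeast, had 0.65, -0.030 and -0.025 in dwarf and 0.66, 0.40 and 0.68 in large libraries. None of these 9 genes departed from the step in any comparison of edgeR.

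For the test of departure, the step of each library was added to the offset of the member rows, so that a gene that follows it has a log2 fold change near 0, and calls were made by edgeR's quasi-likelihood test at an adjusted p under 0.05 over 19870 genes. The value is called a departure. Before the step was taken out, 58 members were called higher in large than in WT libraries, where 3.89% of all genes were called higher, and 0 lower, where 0.327% were. That count holds the step that chose the region. So do 10 members higher in dwarf than in WT (6.54% of all genes) and 0 lower (2.22%), and 13 lower in dwarf than in large (0.377%) and 0 higher (0.272%). With the step out, large against WT gave 7 members above it (2.64% of members, beside 3.46% of all genes) and 2 below (0.755%, beside 0.312%). Dwarf against WT gave 10 above (3.77%, beside 6.55%) and 6 below (2.26%, beside 2.28%). Dwarf against large gave 1 below (0.377%, beside 0.302%) and 0 above (beside 0.247%). The shares of members were near or under those of all genes except for the 2 members below the step in large. One of the 2, SEC, lies past the end of the raised run, and with no step taken out after AT3G04220 the count below was 1 (edgeR). That setting was not planned, and it gives SEC the offset of the fit as counted. An unadjusted p under 0.05 was found for 42 of the 265 members in large against WT, beside 18% of all genes, for 57 in dwarf against WT, beside 26.4%, and for 46 in dwarf against large, beside 19.6%. Comparisons with WT share the same 3 WT libraries. Of the 26 calls, 25 were lost without WT 1 and 25 without WT 2, and the 9 of large against WT without large 1, without large 2 or without large 3. Without dwarf 3 the counts were 18 in large against WT, 50 in dwarf against WT and 33 in dwarf against large.

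COBL1 (AT3G02210) was far above the step in libraries labelled large. It had 5.82, 3.09 and 5.18 CPM in dwarf 1, 2 and 3 and 6.65, 7.83 and 6.75 CPM in large 1, 2 and 3, against 2.07, 2.25 and 2.28 CPM in WT 1, 2 and 3. Every RNAi library exceeded every WT library, also dwarf 2 and 3, in which the region had no step. The departure was 1.16 ± 0.20 (SE, edgeR adjusted p = 0.0234) in large against WT and 0.92 ± 0.20 (SE, edgeR adjusted p = 0.0265) in dwarf against WT. AT3G03270, an adenine nucleotide alpha hydrolase-like protein, had 19.5, 10.8 and 10.5 CPM in dwarf and 28.2, 21.97 and 20.1 CPM in large, against 9.23, 6.903 and 7.88 CPM in WT libraries. The large libraries were the highest 3, save that dwarf 1 was close to large 3, and no RNAi library overlapped WT. Its departure was 1.02 ± 0.17 (SE, edgeR adjusted p = 0.021) in large against WT, and 0.56 ± 0.17 (SE, edgeR adjusted p = 0.0741) in dwarf against WT did not pass.

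AT3G04020, whose product is uncharacterized, had 10.1, 6.33 and 6.17 CPM in dwarf and 10.1, 10.02 and 8.97 CPM in large, against 4.26, 4.09 and 4.98 CPM in WT libraries. Its departure was 0.60 ± 0.12 (SE, edgeR adjusted p = 0.0327) in large and 0.57 ± 0.12 (SE, edgeR adjusted p = 0.0221) in dwarf against WT. Dwarf 1 had the level of the large libraries, and dwarf 2 and 3 lay between them and WT. AT3G01580, a tetratricopeptide repeat-like protein, had 7.11, 3.62 and 4.997 CPM in dwarf and 5.74, 6.51 and 7.13 CPM in large, against 2.66, 1.99 and 2.503 CPM in WT libraries. It departed by 0.91 ± 0.19 (SE, edgeR adjusted p = 0.0352) in large and by 0.94 ± 0.19 (SE, edgeR adjusted p = 0.0192) in dwarf against WT. The last 2 calls above the step in large were AT3G03170, uncharacterized, by 1.16 ± 0.25 (SE, edgeR adjusted p = 0.0439), and AT3G03030, an F-box/RNI-like protein, by 0.95 ± 0.17 (SE, edgeR adjusted p = 0.0259). Both averaged under 5 CPM, as did COBL1 and AT3G01580, so that these 4 lie outside the rule for named genes and were named after their values were seen. AT3G03170 averaged 1.69 ± 0.922 CPM in dwarf and 2.96 ± 0.4205 CPM in large, against 0.921 ± 0.114 CPM in WT libraries (SD, n = 3 each), so it passed the minimum of 1 CPM through the libraries in which it was high and its call is no support for a departure.

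The reference names 3 members as pentatricopeptide repeat (PPR) proteins, which bind organelle RNA. Members named tetratricopeptide repeat-like, such as AT3G01580, were not counted among them. Of the 3, 1 was called above the step in large and 2 in dwarf against WT. The third, AT3G02490, named after its values were seen, lay near the step, with departures of 0.046 ± 0.12 (SE, edgeR adjusted p = 0.91) in large and 0.030 ± 0.12 (SE, edgeR adjusted p = 0.901) in dwarf against WT. AT3G02010 had 9.96, 5.96 and 7.002 CPM in dwarf and 8.104, 7.74 and 8.01 CPM in large, against 3.55, 2.43 and 3.56 CPM in WT libraries, and departed by 0.79 ± 0.17 (SE, edgeR adjusted p = 0.0384) in large and by 1.08 ± 0.17 (SE, edgeR adjusted p = 0.00912) in dwarf against WT. Every RNAi library lay above every WT library. The gene is uncertain, because all of it overlaps AK3, which runs on the opposite strand at 292 CPM, and the library kit did not mark strand. AT3G02330 had 6.31, 4.93 and 6.14 CPM in dwarf and 6.68, 7.01 and 5.99 CPM in large, against 2.87, 2.75 and 3.300 CPM in WT libraries, with no overlap. It departed by 0.81 ± 0.17 (SE, edgeR adjusted p = 0.0238) in dwarf against WT, while 0.61 ± 0.17 (SE, edgeR adjusted p = 0.0879) in large did not pass. Genes named as PPR proteins elsewhere in the genome, 280 in all, were looked up after these values were seen. Their median log2 fold change was 0.14 in large against WT, with 26 called higher (9.29%, beside 3.89% of all genes) and 0 lower. In dwarf against WT their median was 0.34, with 60 called higher (21.4%, beside 6.54% of all genes) and 1 lower. The median over all genes tested was 0.010 in large and 0.047 in dwarf against WT.

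The other 5 members above the step in dwarf against WT were highest in dwarf 1 of all 9 libraries. SRG3 (AT3G02040), a glycerophosphodiester phosphodiesterase that releases phosphate from lipids, had 33.3, 16.97 and 11.8 CPM in dwarf and 11.5, 16.3 and 7.57 CPM in large, against 6.54, 9.39 and 7.68 CPM in WT libraries. Large 3 lay within WT, and the departure was 1.15 ± 0.30 (SE, edgeR adjusted p = 0.0463) in dwarf against WT. Another gene overlaps 44.7% of SRG3. AT3G03990, named DWARF 14 in the reference and the receptor of strigolactones, hormones that restrain branching, had 88.5, 64.2 and 52.01 CPM in dwarf and 69.8, 79.7 and 84.8 CPM in large, against 46.1, 41.8 and 37.4 CPM in WT libraries. All RNAi libraries exceeded all WT libraries, and the departure was 0.52 ± 0.11 (SE, edgeR adjusted p = 0.0251) in dwarf against WT, beside 0.37 ± 0.11 (SE, edgeR adjusted p = 0.106) in large against WT.

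ECT1 (AT3G03950), of the YTH family whose members bind methylated adenosine in mRNA, had 68.9, 41.6 and 42.5 CPM in dwarf and 55.2, 56.8 and 50.8 CPM in large, against 33.1, 36.9 and 33.7 CPM in WT libraries. It departed by 0.37 ± 0.081 (SE, edgeR adjusted p = 0.0284) in dwarf against WT, and its large libraries followed the step. AT3G01890, with a SWIB/MDM2 domain, departed by 0.66 ± 0.16 (SE, edgeR adjusted p = 0.0388) and AT3G01860, uncharacterized, by 0.55 ± 0.14 (SE, edgeR adjusted p = 0.0495) in dwarf against WT. AT3G01860 had 77.2, 44.5 and 33.6 CPM in dwarf and 43.2, 39.9 and 42.6 CPM in large, against 28.1, 28.9 and 33.99 CPM in WT libraries, so that dwarf 3 lay within WT.

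Below the step in dwarf against WT, AT3G01930, a transporter of the major facilitator superfamily, had 12.6, 7.66 and 14.6 CPM in dwarf and 34.2, 29.8 and 26.9 CPM in large, against 21.8, 17.1 and 24.1 CPM in WT libraries. All dwarf libraries, dwarf 1 included, lay below all WT libraries, and all large libraries above them. The departure was -0.999 ± 0.25 (SE, edgeR adjusted p = 0.0441) in dwarf against WT and 0.0029 in large against WT, and other genes overlap 22.0% of AT3G01930. AT3G01520, an adenine nucleotide alpha hydrolase-like protein, had 58.5, 40.5 and 41.03 CPM in dwarf and 64.9, 63.6 and 65.4 CPM in large, against 55.8, 57.3 and 51.3 CPM in WT libraries. It departed by -0.41 ± 0.073 (SE, edgeR adjusted p = 0.0141) in dwarf against WT, and in large, where each library stood above WT by less than its step, by -0.29 ± 0.073 (SE, edgeR adjusted p = 0.0658).

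SAUR27 (AT3G03840), of the small auxin up RNA family, had 1.18, 0.529 and 1.11 CPM in dwarf and 2.22, 1.48 and 2.54 CPM in large, against 2.07, 1.78 and 2.16 CPM in WT libraries, and departed by -1.27 ± 0.32 (SE, edgeR adjusted p = 0.0416) in dwarf against WT. The dwarf libraries lay below the WT libraries, and large 2 did as well. Its neighbours SAUR26 (AT3G03850) and SAUR29 (AT3G03820), listed with it, had log2 ratios of -0.53, -1.11 and -0.23 and of -1.11, -0.97 and -0.53 in dwarf and of 0.35, -0.13 and 0.52 and of 0.51, -0.15 and 0.58 in large libraries. The RNA-binding protein AT3G01210 departed by -0.51 ± 0.12 (SE, edgeR adjusted p = 0.0385), the RING/U-box protein AT3G03550 by -0.43 ± 0.10 (SE, edgeR adjusted p = 0.032) and AT3G03590, with a SWIB/MDM2 domain, by -0.55 ± 0.14 (SE, edgeR adjusted p = 0.0446) in dwarf against WT. AT3G03590, at 4.45 CPM, was named after its values were seen.

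AT3G02510, of the family named for the regulator of chromosome condensation RCC1, was the 1 member whose departure differed between dwarf and large. It had 32.1, 24.6 and 28.9 CPM in dwarf and 59.4, 59.1 and 57.4 CPM in large, against 32.4, 33.5 and 34.5 CPM in WT libraries. All dwarf libraries lay below all WT libraries, and all large libraries far above them. The departure was -0.66 ± 0.11 (SE, edgeR adjusted p = 0.0486) in dwarf against large. That call was lost when any 1 library other than dwarf 3 was left out. Against WT the departure was -0.38 in dwarf and 0.28 in large, neither of which passed.

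**Figure D3:**
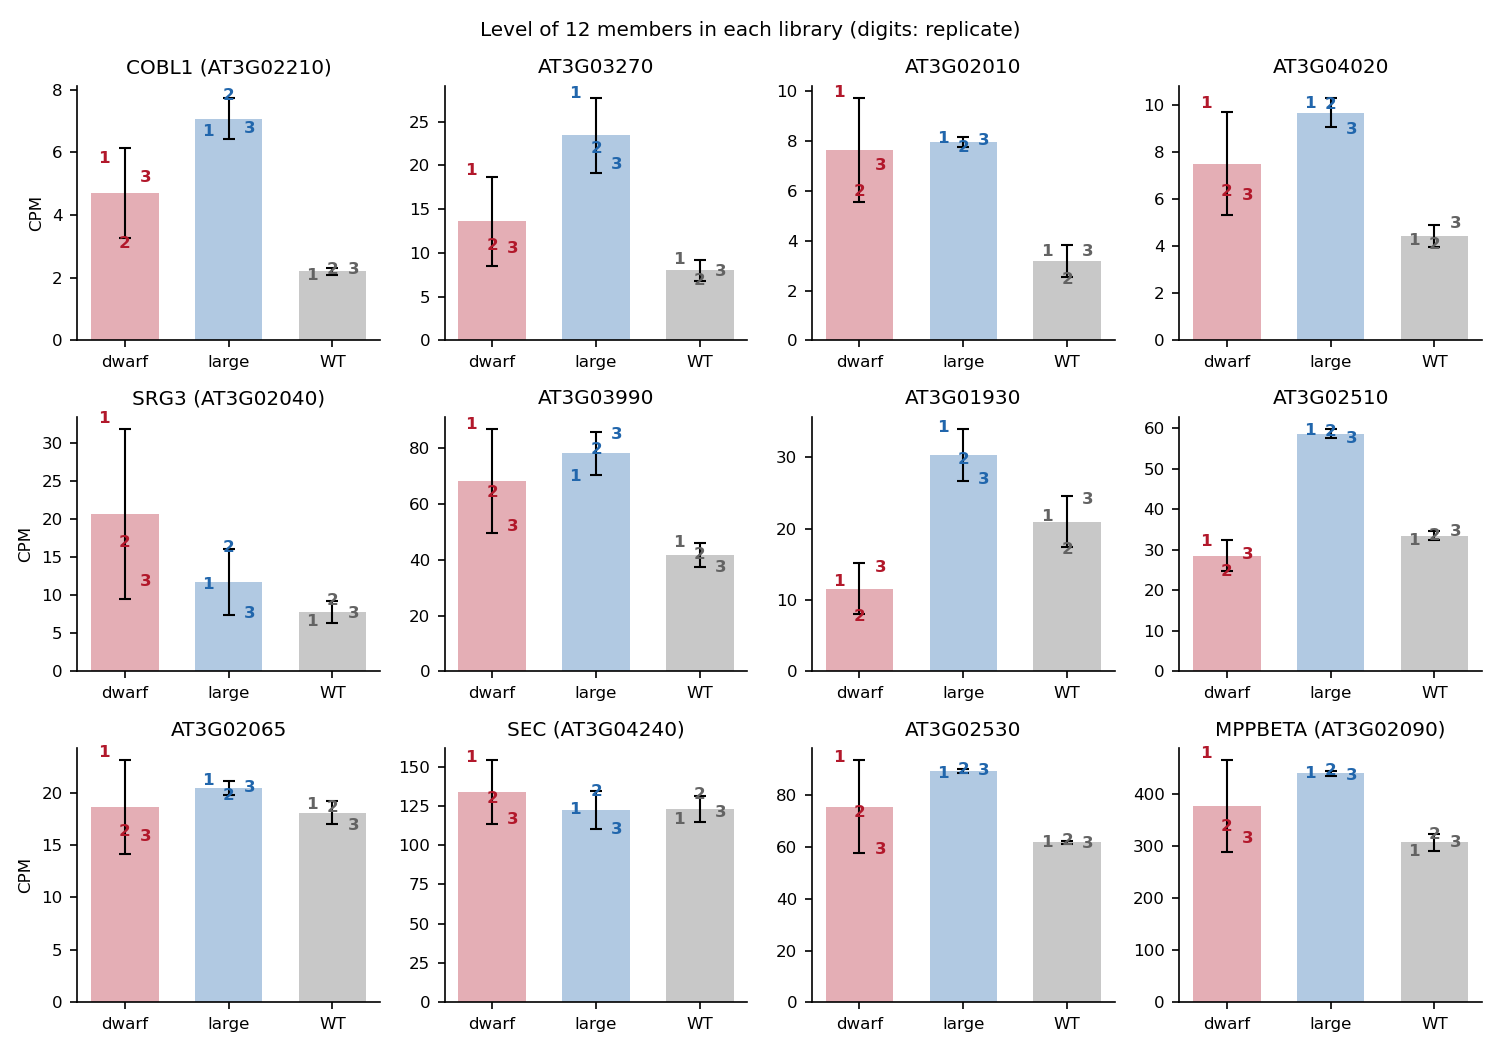
CPM (y, from 0) of 12 members in each library of the 3 groups (x), with the replicate number at each library's value, bars at the group mean and error bars of 1 SD (n = 3). AT3G02530 and MPPBETA keep to the step in the large libraries, COBL1 and AT3G03270 exceed it, AT3G01930 and AT3G02510 part between dwarf and large, and SEC has 110 to 134 CPM in the large and 116 to 132 CPM in the WT libraries.

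Below the step in libraries labelled large were AT3G02065 and SEC. AT3G02065, a P-loop nucleoside triphosphate hydrolase, had 23.8, 16.3 and 15.8 CPM in dwarf and 21.1, 19.8 and 20.5 CPM in large, against 18.8, 18.5 and 16.9 CPM in WT libraries, and departed by -0.35 ± 0.079 (SE, edgeR adjusted p = 0.049) in large against WT. Its call lay close to the threshold, and of the 22 alternatives described at the end 9 kept it and 13 lost it. SEC (AT3G04240), the secret agent protein that adds N-acetylglucosamine to other proteins, had 156, 129.9 and 116 CPM in dwarf and 123, 134 and 110.2 CPM in large, against 116, 132 and 121 CPM in WT libraries. The large and WT libraries overlapped and the fold change before the step was taken out was -0.0077 (edgeR adjusted p = 0.987). The departure was -0.53 ± 0.11 (SE, edgeR adjusted p = 0.0343). SEC lies near the end of the range of codes. With no step taken out after AT3G04220, a setting that was not planned, SEC has the same offset as in the fit as counted. That it was then not called (edgeR adjusted p = 0.987) follows from the setting and is no separate evidence.

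The end of the raised run lay before the end of the range of codes. The 10 genes up to AT3G04220 had a median log2 ratio of 0.52, 0.58 and 0.38 in large 1, 2 and 3 and of 0.68 in dwarf 1. The 4 members after it had 0.069, 0.15 and 0.022 in the large libraries and 0.37 in dwarf 1, and the first 10 genes outside had -0.034, -0.032 and 0.098 in the large libraries and -0.18 in dwarf 1. AT3G04210, a TIR-NBS disease resistance protein, was the last abundant gene with the step, at 419, 290.5 and 242 CPM in dwarf and 323, 315 and 281 CPM in large, against 218, 198 and 222 CPM in WT libraries. AT3G04220, another such gene, had 2.61 CPM on average and log2 ratios of -1.41, 0.79 and -1.04 in large libraries, which do not place it. AT3G04230 had 15.04, 14.7 and 8.33 CPM in dwarf and 12.6, 12.97 and 11.1 CPM in large, against 10.8, 11.3 and 12.3 CPM in WT libraries, and it and AT3G04220 were named after their values were seen. PTAC3 (AT3G04260), of the transcription machinery of plastids, had 80.02, 97.01 and 136 CPM in dwarf and 85.96, 80.7 and 98.3 CPM in large, against 99.8, 89.6 and 87.5 CPM in WT libraries. The end of AT3G04210 (1108252) and the start of AT3G04230 (1112871) lie 4.62 kb apart. Single genes do not place the end of the run that closely in large libraries. AT3G04140, before that gap, had log2 ratios of 0.31, -0.062 and 0.11 in large 1, 2 and 3, and LTL1 and AT3G04350, past it, stood above WT. In dwarf 1 the place was less sharp, since AT3G04230 and SEC still had log2 ratios of 0.39 and 0.34, and PTAC3 -0.20.

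LTL1 (AT3G04290), a lithium-tolerant lipase and the last member, stood above WT again with 66.5, 52.7 and 77.95 CPM in dwarf and 48.02, 56.7 and 60.8 CPM in large, against 35.3, 44.6 and 37.01 CPM in WT libraries. Its height was shared by dwarf 2 and 3, which had no step. Just outside the range, AT3G04310 had log2 ratios of 0.36, 0.12 and 0.20 in dwarf and 0.10, 0.017 and -0.0022 in large libraries, emb2458 had -0.26, -0.011 and 0.41 in dwarf and 0.026, -0.082 and 0.25 in large libraries, and AT3G04350 had 0.54, 0.24 and 0.15 in dwarf and 0.30, 0.28 and 0.25 in large libraries. At the other end no gene of at least 1 CPM lies between the range and the start of the chromosome. The first member, GAUT13 (AT3G01040), a galacturonosyltransferase of pectin synthesis, had 38.1, 25.03 and 28.1 CPM in dwarf and 39.8, 44.1 and 37.5 CPM in large, against 26.2, 27.1 and 28.9 CPM in WT libraries, and MUB1 (AT3G01050) and AT3G01060, a lysine-tRNA ligase, had 0.42, 0.47 and 0.36 and 0.42, 0.23 and 0.26 in log2 ratio in the large libraries.

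**Figure D4:**
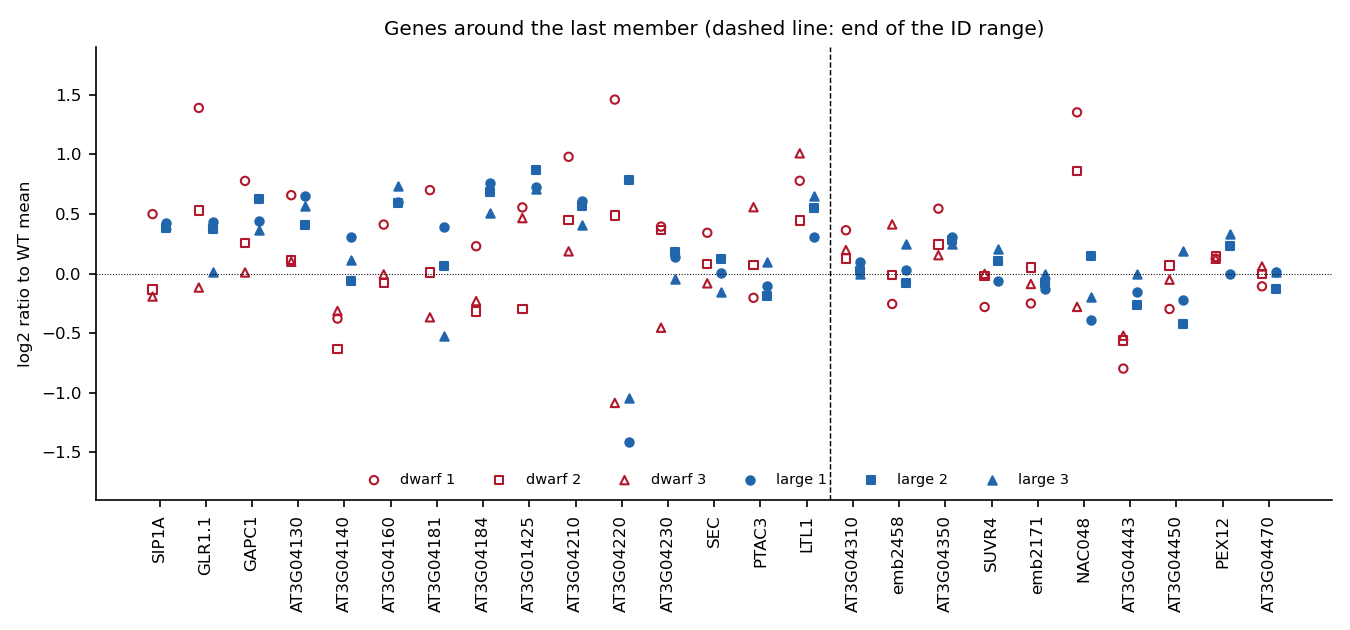
Log2 ratio of CPM to the WT mean (y) in the 6 RNAi libraries for the last 15 members and the next 10 genes in locus order (x), with open red symbols for dwarf and filled blue symbols for large. Most filled symbols lie near 0.5 up to AT3G04210, except those of AT3G04140 and of GLR1.1 in large 3, and near 0 from AT3G04230 to the dashed line, except those of LTL1; AT3G04220 and AT3G04181, at under 3 CPM, scatter widely.

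Members below the step in all of large 1, 2 and 3 were AT3G01520, AT3G02065, VTC4, RGL2, AT3G04230, SEC and PTAC3. The last 3 follow each other past the end of the raised run, while the first 4 lie inside it. VTC4 (AT3G02870), a phosphatase of ascorbate synthesis, had 38.1, 34.3 and 35.04 CPM in dwarf and 41.7, 40.9 and 42.4 CPM in large, against 39.8, 38.1 and 37.1 CPM in WT libraries. Every large library exceeded every WT library by a small amount, and dwarf 1 lay within WT. RGL2 (AT3G03450), a DELLA repressor of gibberellin responses, had 5.05, 2.87 and 4.54 CPM in dwarf and 6.51, 6.38 and 5.11 CPM in large, against 5.83, 5.26 and 5.32 CPM in WT libraries. Neither departed by the test, at -0.41 ± 0.12 (SE, edgeR adjusted p = 0.106) for VTC4 and -0.39 ± 0.19 (SE, edgeR adjusted p = 0.329) for RGL2 in large against WT.

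Of the 23 members above the step in all 3 large libraries, 9 had a mean under 5 CPM and the median was 6.26 CPM. Several varied within WT too. MYB106 (AT3G01140), a regulator of the leaf epidermis, had 5.27, 4.68 and 5.18 CPM in dwarf and 8.56, 9.496 and 14.1 CPM in large, against 3.46, 3.45 and 6.26 CPM in WT libraries, with 76.0% of its length under another gene. AT3G01710, of the TPX2 family of spindle proteins, had 7.36, 5.07 and 6.26 CPM in dwarf and 9.47, 8.48 and 11.5 CPM in large, against 3.55, 3.01 and 5.43 CPM in WT libraries. AT3G02640, uncharacterized, had 19.9, 16.1 and 19.6 CPM in dwarf and 30.6, 30.2 and 31.1 CPM in large, against 11.4, 9.68 and 15.7 CPM in WT libraries. In each of these WT 3 was the highest WT library and every large library exceeded it, and none departed from the step by the test. GASA5 (AT3G02885), of a family of small gibberellin-regulated proteins, had log2 ratios of 0.67, 0.41 and 1.39 in dwarf and 1.76, 2.07 and 1.76 in large libraries, at a mean of 1.22 CPM, and it too had a WT mean under 1 CPM. These members were named after their values were seen.

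Dwarf 1 had the step but not the narrow spread of the large libraries. Among members of at least 20 CPM, HIR2 (AT3G01290), of the hypersensitive induced reaction family, lay farthest above its step, with 374, 198 and 94.5 CPM in dwarf and 105, 164 and 85.2 CPM in large, against 84.03, 87.7 and 92.3 CPM in WT libraries. DOX1 (AT3G01420), an alpha-dioxygenase that oxidizes fatty acids in defence, had 202, 18.1 and 6.26 CPM in dwarf and 52.01, 157 and 19.9 CPM in large, against 31.4, 85.02 and 72.4 CPM in WT libraries, so that it varied more within each group than between them. GLR1.1 (AT3G04110), a glutamate receptor-like channel, and AT3G03440, an armadillo repeat protein, had log2 ratios of 1.39 and 1.12 in dwarf 1. Farthest below were AT3G01930, MS2, AT3G02250, AT3G01980 and CYP38. CYP38 (AT3G01480), a cyclophilin needed to assemble photosystem II, had 199.7, 207 and 208 CPM in dwarf and 315, 264 and 372 CPM in large, against 260.0, 226 and 229 CPM in WT libraries, with all dwarf libraries below all WT libraries. AT3G02250, an O-fucosyltransferase, and AT3G01980, a Rossmann-fold protein, had log2 ratios of -0.38, -0.43 and -0.081 and of -0.27, -0.39 and -0.26 in dwarf libraries. MS2, AT3G02250, AT3G01980 and CYP38 were not called.

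Members were also read by function, in lists chosen with earlier results of these data known. The median departure over all 265 members was 2.3e-05 in large and 0.011 in dwarf against WT, beside 0.0063 and 0.044 over all genes tested. All 11 members listed under translation and protein turnover and all 10 under chromatin, DNA repair and RNA followed the step in every large library. Their median departures in large against WT were 0.0057 and 0.049, and apart from ECT1 none was called. The ribosomal protein gene AT3G02560 had 146, 129 and 113 CPM in dwarf and 159.9, 166 and 202 CPM in large, against 122, 112 and 117 CPM in WT libraries. DRH1 (AT3G01540), an RNA helicase, had 0.46, 0.41 and 0.49 and SNL1 (AT3G01320), a SIN3-like corepressor, 0.70, 0.67 and 0.64 in log2 ratio in large libraries.

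Of sugar metabolism and cell wall genes 11 of 14 followed in every large library, of membrane transport and trafficking genes 9 of 12, and of signalling genes 4 of 5, SEC being the exception. No member of these lists besides SEC was called. UGP1 (AT3G03250), which makes UDP-glucose, had 216, 169.8 and 181 CPM in dwarf and 260.5, 247 and 249 CPM in large, against 192, 213 and 186 CPM in WT libraries, with every large library above WT. VDAC1 (AT3G01280), a channel of the mitochondrial outer membrane, had 266, 181 and 172 CPM in dwarf and 275, 298 and 258 CPM in large, against 173, 176 and 177 CPM in WT libraries. HIR2 overlaps 25.9% of VDAC1 on the other strand.

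In the other lists the counts of members that followed in every large library were 4 of 12 for plastid and photosynthesis, 3 of 9 for sulfur, amino acids and polyamines, 3 of 12 for hormones and growth, 2 of 11 for transcription factors and 2 of 9 for defence and stress. Over all 265 members the share was 52.8%, and differences between the lists were not tested. The median level was 104 CPM in the plastid list, 160 CPM in the sulfur list, 28.9 CPM in the translation list and 6.71 CPM in the transcription factor list, and the part of level in these counts was not tested. In large against WT none of these 5 lists had a call, and in dwarf against WT the calls were AT3G03990 above and SAUR27 below the step. Their median departures in large against WT ran from -0.079 for defence and stress to 0.027 for hormones and growth. Among the transcription factors, HB-1 (AT3G01470), a homeodomain protein, had log2 ratios of 1.08, 0.066 and 0.12 in dwarf and 0.60, 0.55 and 0.35 in large libraries. PTF1 (AT3G02150), a TCP factor, had 1.40, -0.11 and -0.16 in dwarf and 0.63, 1.05 and 0.19 in large libraries.

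**Figure D5:**
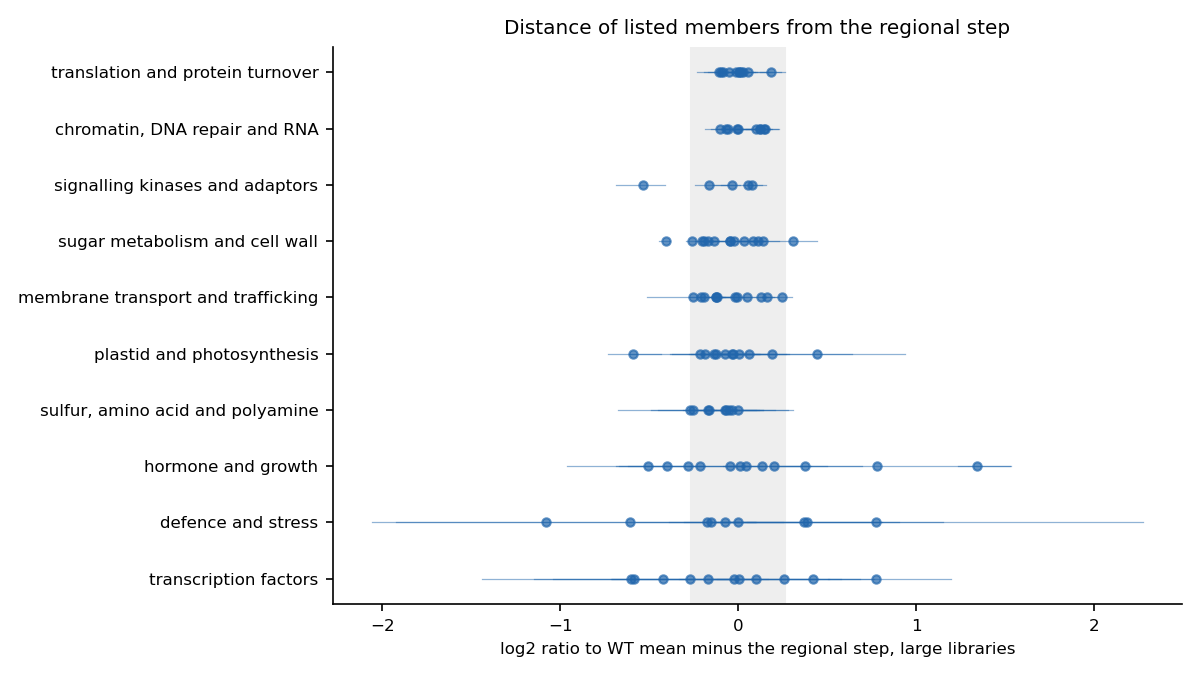
Log2 ratio to the WT mean minus the regional step of the library (x) for the members of each functional list (y), with a dot at the mean over large 1, 2 and 3 and a line from the lowest to the highest of the 3; the grey band marks 0.5 times the mean step on either side. All dots and lines of the translation and chromatin lists lie in or at the band, while those of the transcription factor, defence and hormone lists reach past it on both sides.

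The rule has thresholds at 1 CPM and at the ends of the range of codes. Just under 1 CPM lay NAC044 (0.908 CPM), ICME-LIKE2 (0.957 CPM) and LYK2 (0.998 CPM), with log2 ratios of 1.45, 1.52 and 1.52, of 0.93, 0.72 and 0.97, and of 3.53, 2.78 and 3.07 in large 1, 2 and 3. Just over it lay AT3G01425 (1.03 CPM), AT3G01950 (1.05 CPM) and AT3G04184 (1.13 CPM), with 0.73, 0.87 and 0.71, with 0.28, 0.46 and 0.15, and with 0.76, 0.68 and 0.50. Of the 265 members, 8 had a WT mean under 1 CPM and passed the threshold through the RNAi libraries. Another gene overlapped at least 10% of the length of 48 members, and for these the counts of the partners cannot be told apart by strand.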

How the data were processed

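Gene counts were deposited for 9 libraries, 3 per group. Per the labels' protocols, RNA was extracted from aboveground tissue of soil-grown plants with a NucleoSpin RNA Plant kit and made into paired-end TruSeq RNA v2 libraries, a kit that does not mark strand. Per the submitters' processing notes the authors used Trim Galore 0.4.1, STAR 2.7.0a and TAIR10, while no source used here names the counting program or its annotation. From the raw counts, CPM and log2 CPM (prior count 2) were computed with TMM factors (0.935 to 1.05) in edgeR 4.0.16 and R 4.3.3. One quasi-likelihood model of 3 groups was fitted over 19870 genes kept by filterByExpr, with Benjamini-Hochberg adjustment over all of them and a threshold of 0.05, once as counted and once with the regional step of each library added to the offset of the member rows. The fit with the step in the offset was tested on simulated data with single genes changed in the large group only, read in large against WT. The comparisons with dwarf and the fit as counted were not tested in that way. The outcome is not given here and no support is drawn from it. The SE is the log2 fold change divided by the square root of F. DESeq2 1.42.0 and limma 3.58.1 served as alternatives. Gene names, positions and sequences came from RefSeq's TAIR10.1. The members, lists and tests were chosen with earlier results of these data known. Named were called members of at least 5 CPM, the most abundant members, those of each list, those at the ends, and those closest to and, in dwarf 1, farthest from the step. Replicate numbers were not used to pair libraries. Totals of 34660392 to 35217754 counts limit the precision for genes of few CPM.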

Additional observations from a re-analysis of the deposited data

Results flagged for a closer look

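AT3G02510, a member of the RCC1 family, stood out because its difference from the regional step was not the same in the dwarf and the large libraries, by a test of that difference itself. The departure in dwarf against large was -0.66 (edgeR adjusted p = 0.0486). It was the 1 such call among 265 members (0.377%, beside 0.302% of all genes). Fits of only the 2 groups compared (edgeR adjusted p = 0.20), a replicate block, a running median and adjustment over chromosomes 2, 3 and 5 lost the call. So did leaving out any 1 library except dwarf 3. AT3G02510 had 32.1, 24.6 and 28.9 CPM in dwarf and 59.4, 59.1 and 57.4 CPM in large, against 32.4, 33.5 and 34.5 CPM in WT libraries. It was lower in 3 of 3 dwarf libraries than in any large library. That held for 104 members (39.2%, beside 11.2% of all genes), and nothing is read from it.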

How the results depend on the processing

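None of the 26 calls of departure was reversed by the alternatives run, while the mean step of dwarf changed sign without dwarf 1, at -0.044 in place of 0.15. Of the 26 calls, 1, AT3G02010 in dwarf against WT, was kept in all 22 alternatives, with a highest adjusted p of 0.0493. That gene stays uncertain, because AK3 overlaps all of it on the opposite strand and no alternative changed the counting. The mean step of large was 0.503 with DESeq2 size factors and 0.508 with no filter, and that of dwarf 0.078 with upper-quartile factors. Counts of departures are given below for large against WT, dwarf against WT and dwarf against large in that order. They were 23, 2 and 0 in fits of only the 2 groups compared, 20, 32 and 15 by DESeq2, 47, 52 and 42 by limma voom with quality weights, 5, 8 and 0 with a running median along the chromosome in place of one step, and 3, 8 and 0 when adjusted over chromosomes 2, 3 and 5. Before the step was taken out, counts were 187, 1 and 0 in fits of only 2 groups, 120, 27 and 68 by DESeq2 and 212, 43 and 157 by voom, and dwarf against WT had 5 adjusted over those chromosomes. The causes were not tested.

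With a replicate block, 9 members departed in dwarf against WT and 0 in dwarf against large, and 0 were called in dwarf against large before the step was taken out. Libraries with the same replicate number did not deviate together, with correlations from -0.24 to 0.43, so the numbers were not taken to pair them.

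Leaving out 1 library at a time gave 0 to 18, 1 to 50 and 0 to 33 departures, and 0 to 160, 0 to 42 and 0 to 86 calls before the step was taken out. The highest of these came without dwarf 3, except that 160 and 86 came without dwarf 1. Large against WT had 0 departures without large 1, 2 or 3, WT 1 or WT 2. The mean step ran from -0.044 (without dwarf 1) to 0.26 in dwarf and from 0.51 to 0.54 in large libraries.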
